A study of Mus musculus with 14 samples.

Results

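The genes of the Irak family and of the Myddosome were followed in bulk RNA-seq of the mouse hippocampus. They are Irak1, Irak2, Irak3, Irak4, Myd88, Tirap, Traf6, Map3k7, Tab2 and Peli1, chosen by symbol in the GENCODE M21 annotation, which makes 10 of the 55536 Ensembl genes of the count table. All 10 passed the filter of at least 10 counts in total, as did 60 of their 70 annotated transcripts, while 8 transcripts had no count in any library. The hippocampi came from perfused brains of mice aged 10 months, with 1 library per mouse. MRL mice (B6.MRL-Faslpr/J, n = 4) carry the lpr allele of Fas, MRL-IRAK4-KD mice (n = 4) carry lpr and a kinase-dead IRAK4, IRAK4-KD mice (n = 3) carry the kinase-dead IRAK4 alone, and C57BL6/J mice (n = 3) carry neither. All strains share the C57BL/6 background, and both alleles are carried in the germline, so that no cell type or promoter limits them. Sex is not given in the labels of these libraries.

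Toll-like receptors other than TLR3 and the interleukin-1 receptor family signal through the Myddosome, a helical stack of death domains. MyD88 forms its top layer, IRAK4 the middle and IRAK1 or IRAK2 the bottom, where IRAK4 can phosphorylate them. TIRAP bridges MyD88 to receptors at the membrane, and IRAK3, also called IRAK-M, lacks the catalytic activity of its relatives and is known as a brake. The activated IRAKs engage the ubiquitin ligases TRAF6 and Pellino-1 (Peli1), and ubiquitin chains read by TAB2 bring in the kinase TAK1 (Map3k7), upstream of NF-κB and the MAP kinases. In the brain the pathway is best known from microglia. The kinase-dead allele removes an enzymatic activity, so the level of Irak4 RNA is no check of the genotype.

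The libraries held 279941472 to 572398312 estimated counts, which are not reads: the core's sheet lists 148569712 to 299836957 reads for them. MRL-IRAK4-KD replicate 4 stood apart: it lay at 113 on the first principal component, against -20.1 to 4.68 in the other 13 libraries. Its input RNA measured 27.4 by Qubit (unit not given), against 39.6 to 43.7. Shifts on the log2 scale were taken for each library against the median of the other 13. In this library genes with transcripts under 2 kb were shifted by 0.54 and those over 5 kb by -0.52. In the other libraries these shifts were between -0.18 and 0.13. The library labelled IRAK4-KD replicate 3 had 0 counts of the full-length Fas transcript Fas-201 and 514 counts of Fas-204, the transcript found in lpr libraries, against 345 to 584 and at most 7 counts in the 3 C57BL6/J libraries. Fold changes that rest on either library are therefore also given without it. The hippocampal markers Neurod6, Wfs1, Prox1, Grik4 and Spink8 were detected in every library, with summed levels of 293 to 556 CPM (counts scaled to a common library size). The summed level of 7 thalamus and striatum markers was 175 CPM in the library labelled IRAK4-KD replicate 3. It reached at most 102 CPM in MRL, 98.6 CPM in MRL-IRAK4-KD and 95.3 CPM in C57BL6/J mice. The sum of 6 pituitary markers was 86.9 CPM in MRL replicate 3 and at most 6.23 CPM in the other groups. The part of dissection in the other values was not tested.

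Compared per length, the 10 genes kept a steep order of abundance. Averaged over the 13 libraries without MRL-IRAK4-KD replicate 4, levels in TPM (counts per kb of transcript, scaled to a common total in each library) were 38.9 ± 3.04 (SD) for Irak1, 34.9 ± 3.15 for Tab2, 26.2 ± 2.67 for Peli1 and 23.5 ± 2.00 for Map3k7. The neighbours among these 4 overlapped in their ranges. Irak2 followed at 10.9 ± 0.807 TPM with no library in the range of Map3k7, then Traf6 at 7.72 ± 0.814 and Myd88 at 5.25 ± 0.424. The ranges of Irak2 and Traf6 met, but Irak2 was the higher of the pair in all 13 libraries. Irak4 at 1.56 ± 0.167 and Tirap at 1.51 ± 0.174 TPM could not be ordered, since Irak4 was the higher in 8 of the 13 libraries. Irak3 was the scarcest at 0.717 ± 0.204 TPM and lay below Tirap in every library. The RNA of the kinase IRAK4 was thus far scarcer than that of its substrate IRAK1: the lowest library of Irak1 had 33.7 TPM and the highest of Irak4 1.83 TPM.

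None of the 10 genes was called between groups by the test across all genes, at an adjusted p below 0.05. edgeR's quasi-likelihood test with Benjamini-Hochberg adjustment over 38070 genes called 0 of the 10 in MRL-IRAK4-KD over MRL, where 0.0972% of all genes tested were called, and 0 in IRAK4-KD over C57BL6/J, where 0.147% were. It also called 0 for the mutation averaged over both backgrounds (0.213% of all genes), 0 in MRL over C57BL6/J (0% of all genes), 0 in MRL-IRAK4-KD over IRAK4-KD (0.0735%) and 0 for the difference between the mutation's effects on the lpr and the other background (0.00263%). At such backgrounds a count of 0 among 10 genes is no result about these genes, and the intervals of their ratios say more. The number of the 10 at an unadjusted p below 0.05 was 0 in all 6 comparisons by edgeR, DESeq2 and limma-voom over all libraries. Of all genes 3.80 to 11.4% had such a p by edgeR, so this count is no result about the 10 genes either. Some other settings gave 1 of the 10, among them the replicate block in MRL-IRAK4-KD over MRL (edgeR unadjusted p = 0.0125). None of the 154 pairs of a setting and a comparison brought a call. The lowest adjusted p of any was 0.288, for Irak3. Comparisons that share a group, such as MRL-IRAK4-KD over MRL and MRL over C57BL6/J, are not independent of each other.

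The size of the differences was limited as follows. In MRL-IRAK4-KD over MRL the log2 fold changes ran from -0.50 to 0.15 with a median of -0.18 (2 positive, 8 negative), beside a median of -0.0023 over all genes tested. Without MRL-IRAK4-KD replicate 4 the median was -0.07 and 3 were positive. In IRAK4-KD over C57BL6/J they ran from -0.19 to 0.16 with a median of 0.06, beside -0.0079 over all genes, and without the library labelled IRAK4-KD replicate 3 from -0.55 to 0.18 with a median of 0.03. In MRL over C57BL6/J all 10 were positive, from 0.03 to 0.41 with a median of 0.14, beside -0.0046 over all genes, and 10 were also positive without MRL-IRAK4-KD replicate 4. In MRL-IRAK4-KD over IRAK4-KD they ran from -0.23 to 0.24, and without both doubted libraries from -0.08 to 0.41. The 95% intervals of the 10 ratios reached from 0.483 to 1.34 in MRL-IRAK4-KD over MRL, from 0.564 to 1.45 in IRAK4-KD over C57BL6/J and from 0.739 to 2.00 in MRL over C57BL6/J, the 2.00 being that of Irak3. Without MRL-IRAK4-KD replicate 4 the first reached from 0.461 to 1.20. Without the library labelled IRAK4-KD replicate 3 the second reached from 0.441 to 1.48. An adjusted p above the threshold does not show that the levels were the same. In bulk tissue fewer cells of a type and less RNA per cell cannot be told apart.

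**Figure D1:**
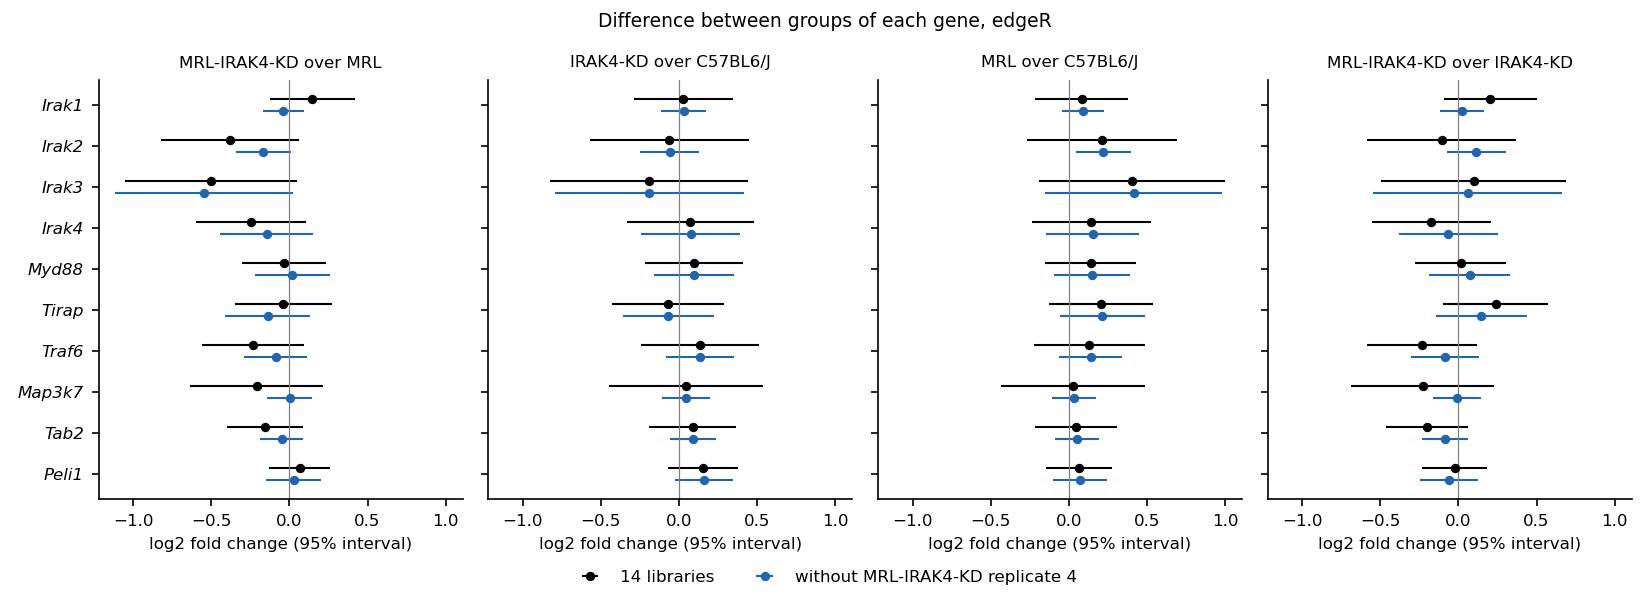
log2 fold change of each of the 10 genes in 4 comparisons between groups, with 95% intervals from edgeR, over all 14 libraries (black) and without MRL-IRAK4-KD replicate 4 (blue). All black intervals include 0, and the negative values of MRL-IRAK4-KD over MRL lie closer to 0 in blue for Irak2, Irak4, Traf6, Map3k7 and Tab2.

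Irak4 itself (ENSMUSG00000059883.16, mm10 chromosome 15, plus strand, 94543643 to 94581815) was read at 2.46, 2.22, 2.14 and 2.72 CPM in the 4 MRL mice and at 2.05, 2.21, 2.24 and 1.54 CPM in the 4 MRL-IRAK4-KD mice. C57BL6/J mice had 2.36, 1.81 and 2.31 CPM and IRAK4-KD mice 2.04, 2.53 and 2.23 CPM. Each pair of groups overlapped, and the lowest of the 14 values was that of MRL-IRAK4-KD replicate 4. The log2 fold change was -0.25 in MRL-IRAK4-KD over MRL (SE 0.16, edgeR adjusted p = 0.527) and -0.14 without that replicate. In IRAK4-KD over C57BL6/J it was 0.07 (SE 0.19, edgeR adjusted p = 1) and 0.08 without the library labelled IRAK4-KD replicate 3, and the difference between these effects was -0.32 (SE 0.25, edgeR adjusted p = 0.914). The kinase-dead groups thus had an Irak4 level between 0.659 and 1.08 times that of MRL mice and between 0.792 and 1.40 times that of C57BL6/J mice by the 95% intervals. The first interval was 0.736 to 1.11 without MRL-IRAK4-KD replicate 4. The second was 0.761 to 1.48 without the library labelled IRAK4-KD replicate 3. None of the 13 other genes tested within 1 Mb of Irak4 was called in either comparison by edgeR, and 0 of them had an unadjusted p below 0.05. Of all genes 11.4% had such a p in MRL-IRAK4-KD over MRL and 3.80% in IRAK4-KD over C57BL6/J.

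Irak3 (ENSMUSG00000020227.10, chromosome 10, minus strand, 120141648 to 120202130), the inhibitory member, gave the largest difference in MRL-IRAK4-KD over MRL. MRL mice had 1.14, 1.28, 1.06 and 1.67 CPM and MRL-IRAK4-KD mice had 1.01, 0.859, 0.781 and 0.982 CPM. In CPM every MRL value lay above every MRL-IRAK4-KD value, the only such case among the 10 genes in this comparison. Of all genes 5.26% did not overlap there. In TPM the groups overlapped, with 0.759 in MRL-IRAK4-KD replicate 1 against 0.750 and 0.722 in MRL replicates 1 and 3. The log2 fold change was -0.50 (SE 0.26, unadjusted p = 0.0695, edgeR adjusted p = 0.446). In the C57BL6/J mice it was read at 1.04, 1.20 and 0.666 CPM and in the IRAK4-KD mice at 0.694, 0.633 and 1.22 CPM. The highest of these last values belongs to the library labelled IRAK4-KD replicate 3: the log2 fold change in IRAK4-KD over C57BL6/J was -0.19 with it and -0.55 without it (edgeR adjusted p = 1 in both). At the other end it was -0.0025 without C57BL6/J replicate 2, and leaving out either of the other IRAK4-KD libraries also brought it closer to 0, so that single libraries set its size. Averaged over both backgrounds, the log2 fold change was -0.35 (edgeR adjusted p = 0.647) and, without both doubted libraries, -0.54 (SE 0.17, unadjusted p = 0.00841, edgeR adjusted p = 0.288). The counts behind Irak3 were 253 to 797 per library.

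Irak2 (ENSMUSG00000060477.14, chromosome 6, plus strand, 113638467 to 113695026), a kinase that acts beside Irak1, was read at 17.7, 17.3, 17.4 and 14.6 CPM in MRL mice and at 15.996, 14.9, 13.9 and 6.46 CPM in MRL-IRAK4-KD mice. C57BL6/J mice had 13.6, 15.05 and 14.6 CPM and IRAK4-KD mice 14.1, 13.6 and 13.7 CPM. Of the MRL libraries 3 lay above all the others, and the fourth fell within the range of C57BL6/J and MRL-IRAK4-KD mice. The log2 fold change was -0.38 in MRL-IRAK4-KD over MRL (SE 0.21, edgeR adjusted p = 0.453), and it was -0.17 when MRL-IRAK4-KD replicate 4 was left out, so that the value rested in large part on 1 library. In MRL over C57BL6/J it was 0.21 (SE 0.22, edgeR adjusted p = 1). Leaving out that library, which belongs to neither group but enters the shared scaling and estimate of the spread, gave 0.22 with an unadjusted p of 0.0175 and an edgeR adjusted p = 0.382.

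Irak1 (ENSMUSG00000031392.18, chromosome X, minus strand, 74013914 to 74023918), the substrate of IRAK4, was level in CPM but for a single library. MRL mice had 50.3, 58.1, 54.4 and 56.9 CPM and MRL-IRAK4-KD mice had 54.3, 52.4, 54.5 and 82.2 CPM, the last in replicate 4. C57BL6/J mice had 50.1, 50.6 and 55.0 CPM and IRAK4-KD mice 54.2, 51.3 and 53.2 CPM. Apart from the library at 82.2 CPM the remaining 13 values lay between 50.1 and 58.1 CPM. In TPM the same library did not stand apart, at 37.6 in a range of 33.7 to 44.3. Without it the log2 fold change of MRL-IRAK4-KD over MRL moved from 0.15 to -0.04.

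The adaptors Myd88 (ENSMUSG00000032508.8, 119335934 to 119341411) and Tirap (ENSMUSG00000032041.15, 35184551 to 35200291), both on the minus strand of chromosome 9, overlapped in the 4 comparisons. Myd88 ranged from 4.67 to 5.73 CPM in MRL, 4.41 to 5.39 CPM in MRL-IRAK4-KD, 4.18 to 5.01 CPM in C57BL6/J and 4.36 to 5.42 CPM in IRAK4-KD mice. Tirap ranged from 3.07 to 3.67, 2.81 to 3.85, 2.53 to 3.37 and 2.58 to 2.92 CPM in the same groups. Their log2 fold changes in MRL-IRAK4-KD over MRL were -0.03 (SE 0.13) and -0.04 (SE 0.14), and the sign of the first turned without MRL-IRAK4-KD replicate 4 (0.02).

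Downstream, Traf6, Map3k7 and Tab2 shared 1 low library. Traf6 (ENSMUSG00000027164.8, chromosome 2, plus strand, 101678429 to 101701669), the ubiquitin ligase next to the IRAKs, was read at 26.1, 20.2, 22.3 and 22.9 CPM in MRL mice and at 22.0, 21.3, 21.5 and 13.04 CPM in MRL-IRAK4-KD mice. Map3k7 (ENSMUSG00000028284.13, chromosome 4, plus strand, 31964097 to 32023467), which encodes TAK1, was read at 63.2, 59.2, 59.3 and 63.0 CPM in MRL mice and at 58.9, 63.9, 61.7 and 26.8 CPM in MRL-IRAK4-KD mice. Tab2 (ENSMUSG00000015755.16, chromosome 10, minus strand, 7905653 to 7956230), whose protein binds the ubiquitin chains, had 67.2 to 74.1 CPM in MRL mice and 65.1, 71.3, 69.2 and 47.6 CPM in MRL-IRAK4-KD mice. In all 3 genes the low value was MRL-IRAK4-KD replicate 4, and the other 3 libraries of that group lay in or next to the MRL range. In C57BL6/J and IRAK4-KD mice Traf6 ranged from 19.7 to 21.9 and 20.1 to 25.9 CPM, Map3k7 from 57.9 to 64.2 and 57.4 to 67.5 CPM and Tab2 from 64.6 to 72.5 and 68.0 to 77.8 CPM, all overlapping. The log2 fold changes of the 3 genes in MRL-IRAK4-KD over MRL went from -0.23, -0.21 and -0.16 to -0.09, 0.00 and -0.05 without it. Peli1 (ENSMUSG00000020134.13, chromosome 11, plus strand, 21091291 to 21150323), the ligase that modifies IRAK1, was steady at 41.6 to 44.9 CPM in MRL, 43.1 to 48.3 CPM in MRL-IRAK4-KD, 37.6 to 44.7 CPM in C57BL6/J and 40.6 to 51.8 CPM in IRAK4-KD mice. In IRAK4-KD over C57BL6/J its log2 fold change of 0.16 (SE 0.10, edgeR adjusted p = 1) was the largest positive one of the 10, and it was 0.06 without the library labelled IRAK4-KD replicate 3, which held the 51.8 CPM. No gene of the 10 was without overlap in IRAK4-KD over C57BL6/J, MRL over C57BL6/J or MRL-IRAK4-KD over IRAK4-KD, where 11.2%, 9.63% and 8.74% of all genes were.

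**Figure D2:**
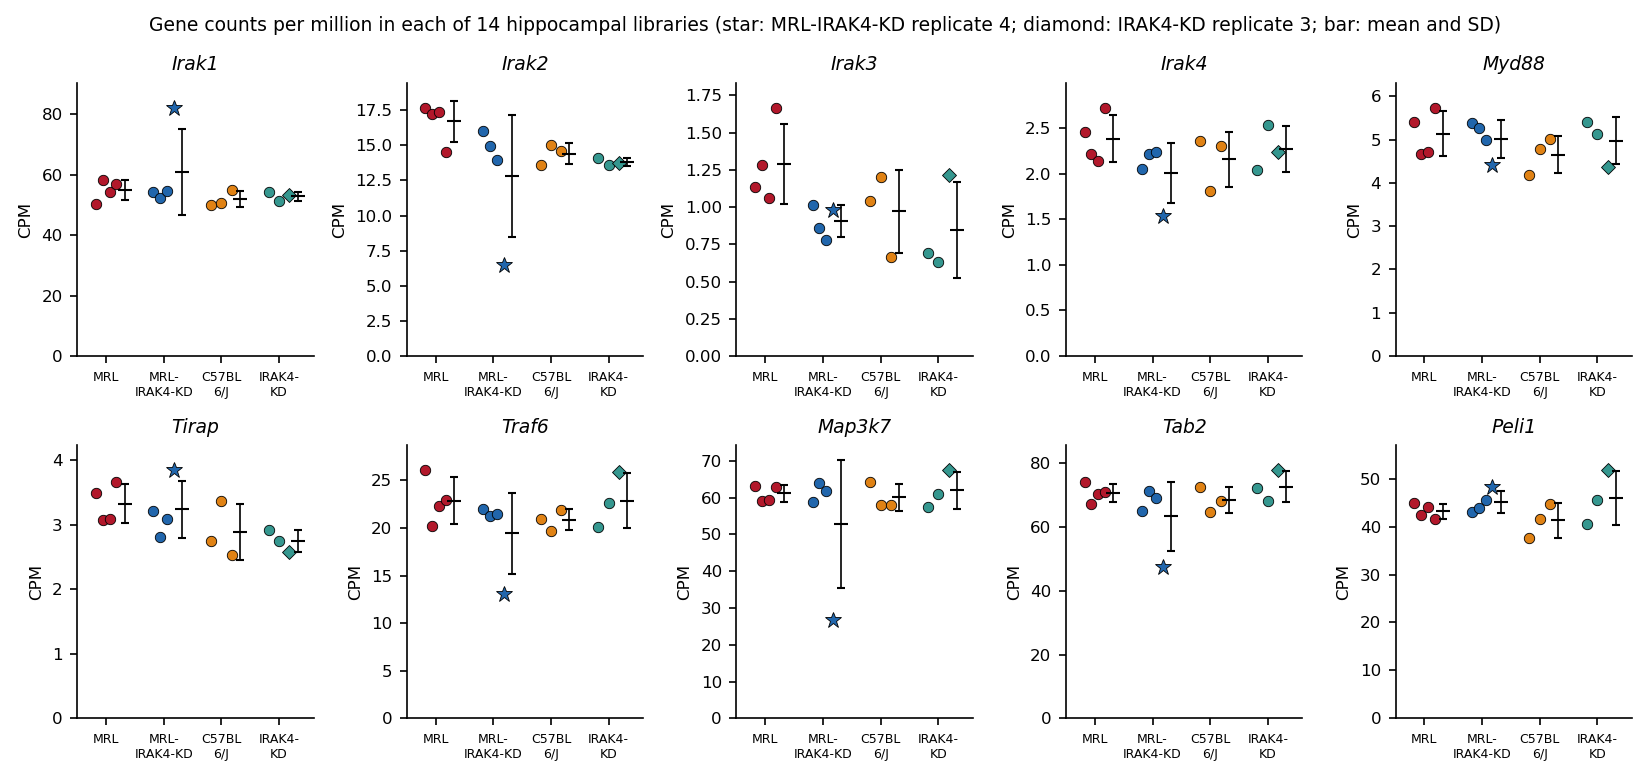
CPM of the 10 genes in each of 14 libraries, grouped by strain, with the mean and SD of each group. MRL-IRAK4-KD replicate 4 (star) is the highest value of Irak1 at 82.2 CPM and the lowest of Irak2, Irak4, Traf6, Map3k7 and Tab2. In Irak3 the MRL and MRL-IRAK4-KD libraries do not overlap in CPM, although they do in TPM.

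The use of Irak4 transcripts was then examined. The annotation holds Irak4-201 (2831 nt) and Irak4-202 (3437 nt), both coding with 12 exons, and Irak4-203, a transcript with a retained intron that ends after 6 exons. The coding pair shares exons 2 to 11 and part of exon 1 but ends in different last exons, so the reading frame closes on different residues. The ends are shown because they are what tells the isoforms apart, with the last 30 bases of exon 11 in lower case and the coding bases of exon 12, stop codon included, in capitals.
Irak4-201 (mm10 chr15:94567014-94567046, plus strand): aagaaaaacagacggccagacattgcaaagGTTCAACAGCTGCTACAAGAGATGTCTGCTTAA
Irak4-202 (mm10 chr15:94579888-94579902, plus strand): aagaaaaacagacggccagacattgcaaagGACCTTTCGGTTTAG
Without the stop codon the coding sequences are 1377 and 1359 bases long, and exon 12 supplies 30 of these bases in Irak4-201 and 12 in Irak4-202. The sequences were read from the GENCODE M21 transcripts, and whether the libraries carry the kinase-dead codon cannot be read from counts.

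Per kb, Irak4-201 was the leading Irak4 transcript in 13 of 14 libraries. By counts, Irak4-202 was ahead in 4, narrowly in MRL replicate 3 (508 against 495), C57BL6/J replicate 1 (433 against 431) and IRAK4-KD replicate 2 (498 against 496). Irak4-201 took 63.0, 62.4, 52.5 and 58.2% of the Irak4 counts per kb in MRL mice and 67.4, 61.6, 56.3 and 98.4% in MRL-IRAK4-KD mice. In C57BL6/J mice it took 53.7, 55.4 and 61.1%, and in IRAK4-KD mice 64.7, 52.1 and 48.4%. The 98.4% belongs to MRL-IRAK4-KD replicate 4, where Irak4-202 had 9 counts against 253 to 689 in the other libraries, while Irak4-201 had 468 counts against 265 to 737. Irak4-202 led on both scales in the library labelled IRAK4-KD replicate 3 (689 against 545 counts). Irak4-203 had 33 counts or fewer in every library.

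The share of Irak4-201 differed between mutant and intact mice by 5.13 percentage points over both backgrounds (2-sided exact permutation test within backgrounds, p = 0.453, adjusted over the 3 transcripts p = 0.543, smallest p of the design 0.00143). Within the lpr background the difference was 11.9 points (exact p = 0.286, 4 against 4, smallest p 0.0286), and it was 2.77 points without MRL-IRAK4-KD replicate 4 (exact p = 0.486). Within the other background it was -1.68 points (exact p = 0.8, 3 against 3, where no p below 0.1 is possible), and without both doubted libraries 1.67 points. Without MRL-IRAK4-KD replicate 4 the difference over both backgrounds was 0.545 points (exact p = 0.87). Leaving out other single libraries gave differences over both backgrounds of up to 7.57 points, with no p below 0.257.

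**Figure D3:**
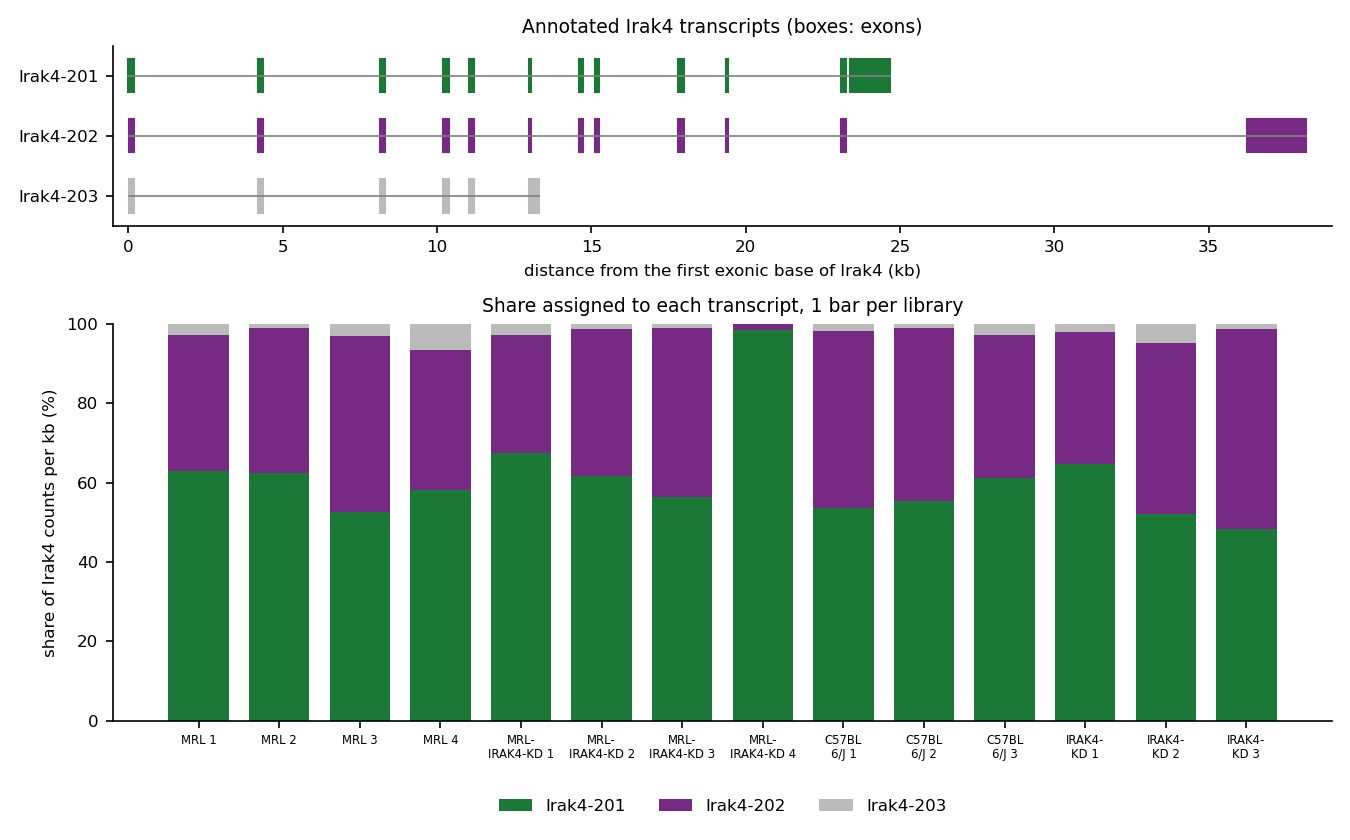
Top: exons of the 3 annotated Irak4 transcripts by distance from the first exonic base, in kb. Bottom: share of the Irak4 counts per kb assigned to each transcript, in percent, 1 bar per library. Irak4-201 takes 48.4 to 67.4% in 13 libraries and 98.4% in MRL-IRAK4-KD replicate 4.

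Over all 60 transcripts tested, edgeR called 0 in MRL-IRAK4-KD over MRL (0.0218% of 105421 transcripts were called there, and 2 of the 60 had an unadjusted p below 0.05), 0 in IRAK4-KD over C57BL6/J (0.0313%, 3 of the 60), 0 for the mutation averaged over both backgrounds (0.0465%, 3 of the 60), 0 in MRL over C57BL6/J (0.00285%, 4 of the 60) and 0 in MRL-IRAK4-KD over IRAK4-KD (0.0228%, 4 of the 60). limma-voom also called 0 in each. The share of all transcripts at an unadjusted p below 0.05 is not given beside the counts among the 60, here or for the use of transcripts. Those counts are therefore descriptions only.

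A test of use compares a transcript with the other transcripts of its gene. edgeR's test of use called Tab2-201 and Peli1-202 in MRL-IRAK4-KD over MRL (1.01% of 83733 transcripts), Irak1-207 in IRAK4-KD over C57BL6/J (0.607%) and none averaged over both backgrounds (0.799%, 3 of the 60 at an unadjusted p below 0.05). On simulated counts this test called mostly transcripts that had not been altered, so its calls are given as values only, and the limma test recovered few of those that had been. limma on log2 ratios of use called 0 of the 60 in MRL-IRAK4-KD over MRL (0.00836% of all, 3 of the 60 at an unadjusted p below 0.05), 0 in IRAK4-KD over C57BL6/J (0.0358%, 1 of the 60) and 0 averaged (0.0287%, 1 of the 60). The calls of Tab2-201 and Peli1-202 were each made by 1 library. Tab2-201 had 521 counts in MRL-IRAK4-KD replicate 4 and 9 to 79 in the other 13. Peli1-202, which starts within the gene and encodes the same 1254 coding bases, had 14764 counts in that library and 25 to 286 in the others, whereas the usual Peli1-201 had 0 counts there and 11726 to 28140 elsewhere. Without the library both calls were lost. Irak1-207 had 0, 0 and 0 counts in C57BL6/J mice, 38, 70 and 0 in IRAK4-KD mice, 40, 309, 250 and 154 in MRL mice and 272, 86, 0 and 15 in MRL-IRAK4-KD mice, with the 0 of the IRAK4-KD group in the library labelled replicate 3.

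Several genes of the pathway had a pair of coding transcripts that varied widely between mice of the same strain. The pairs were chosen after their values were seen, and their sequences are shown because the isoforms differ by a single exon or joint. Map3k7-201 holds an exon 12 of 81 bases that Map3k7-202 lacks, Irak2-201 holds an exon 3 of 144 bases that Irak2-202 lacks, and Irak1-206 differs from Irak1-204 by 3 bases at the start of exon 5. In each line the bases in question are in capitals, with 15 bases of each neighbouring exon in lower case.
Map3k7-201 (mm10 chr4:31994874-31994954, plus strand): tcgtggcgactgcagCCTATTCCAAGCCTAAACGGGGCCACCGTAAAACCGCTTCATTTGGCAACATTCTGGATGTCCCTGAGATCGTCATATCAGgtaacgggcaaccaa
Irak2-201 (mm10 chr6:113665703-113665846, plus strand): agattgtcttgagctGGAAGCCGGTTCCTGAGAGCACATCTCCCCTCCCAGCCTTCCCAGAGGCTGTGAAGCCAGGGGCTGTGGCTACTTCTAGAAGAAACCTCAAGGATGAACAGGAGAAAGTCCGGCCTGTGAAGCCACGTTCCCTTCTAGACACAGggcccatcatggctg
Irak1-206 (minus strand, joint of exons 4 and 5): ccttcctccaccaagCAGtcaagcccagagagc
Irak1-204 (minus strand, same joint): ccttcctccaccaagtcaagcccagagagc
All 3 differences are a multiple of 3 bases, so the reading frame is kept on both sides.

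Of the counts per kb of its pair, Map3k7-201 took 45.1, 48.4, 60.6 and 40.2% in MRL mice, 53.1, 17.0, 44.1 and 78.3% in MRL-IRAK4-KD mice, 31.6, 16.5 and 30.1% in C57BL6/J mice and 16.1, 15.97 and 15.5% in IRAK4-KD mice. By their labels, the MRL libraries lay above the C57BL6/J libraries and the MRL-IRAK4-KD libraries above the IRAK4-KD libraries, the latter only just, at 17.0 against 16.1%. The lowest share, 15.5%, was that of the library labelled IRAK4-KD replicate 3, which had 0 counts of Fas-201 and 514 of Fas-204. Grouped by its Fas transcripts, this library would break the separation of lpr from other libraries. This lack of overlap is a description, since the pair was chosen after its values were seen and the share of all transcript pairs without overlap was not computed. The level of the transcript Map3k7-201 had a log2 fold change of 0.94 in MRL over C57BL6/J (unadjusted p = 0.0137, edgeR adjusted p = 1) and of 1.24 in MRL-IRAK4-KD over IRAK4-KD (unadjusted p = 0.00269, edgeR adjusted p = 0.620, which became 0.466 when MRL-IRAK4-KD replicate 4 was left out and 0.664 at a log2 fold change of 1.28 when both doubted libraries were), and neither passed the test across all transcripts. The summed level of Map3k7 had log2 fold changes of 0.03 and -0.23 in the same comparisons, the latter -0.01 without MRL-IRAK4-KD replicate 4.

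Irak2-201 took 43.6 to 100% of its pair in MRL, 66.9 to 100% in MRL-IRAK4-KD, 53.8 to 66.7% in C57BL6/J and 71.0 to 82.7% in IRAK4-KD mice. Irak1-206 took 22.4 to 76.2%, 23.9 to 70.3%, 31.4 to 74.1% and 38.5 to 56.2% in the same groups. In both genes the MRL mice alone spanned the whole range seen over the 14 libraries, although the summed level of Irak1 had a coefficient of variation of 6.28% in these mice. Peli1-201 took 98.9 to 99.8% in 13 libraries and 0% in MRL-IRAK4-KD replicate 4. Isoforms that differ by 3 bases or by 1 exon share nearly all reads, and how the counts were divided between them was not tested.

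**Figure D4:**
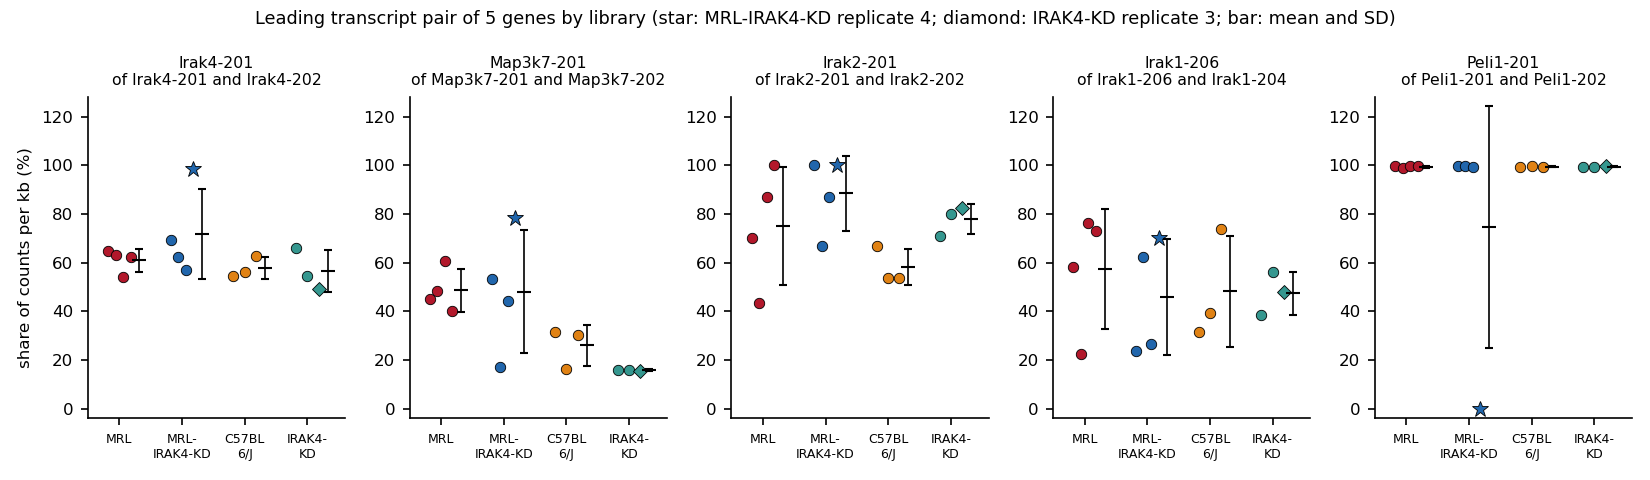
Share of the counts per kb of a pair of coding transcripts taken by the first of the pair, in percent, for 5 genes, 1 point per library with the mean and SD of each group. Map3k7-201 lies at 15.5 to 16.1% in the 3 libraries labelled IRAK4-KD and at 40.2 to 60.6% in the 4 MRL libraries. The 15.5% is that of IRAK4-KD replicate 3, whose Fas transcripts were of the lpr type. Peli1-201 is near 100% in all but MRL-IRAK4-KD replicate 4.

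The profile of Irak4 over the libraries was compared with those of 16103 genes with a mean of at least 1 CPM, as a description over points that share depth, strain and 1 library that stands apart. The highest Pearson correlations of log2 CPM over 14 libraries belonged to Sesn1 (r = 0.907), Smad3 (0.897), Lyn (0.887), Gm11560 (0.884) and Ppp2r2c (0.881). Without MRL-IRAK4-KD replicate 4 the first 5 were Pard3b (0.845), Sesn1 (0.842), Olfr287 (0.808), Fbxo5 (0.802) and Smad3 (0.797), so that Sesn1 and Smad3 were in both. Among the 9 other members Traf6 came nearest, at r = 0.799 (rank 189) over 14 libraries and 0.527 over 13. The correlation of Irak4 with Irak1 went from -0.632 to 0.111 when that library was left out, and that of Irak1 with Map3k7 from -0.933 to -0.287. The pair Map3k7 and Tab2 kept r = 0.747 over the 13 libraries (0.949 over 14).

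The other genes of the pathway were read from 5 lists of 79 genes, all of which were tested. Only 1 of the 79 was called, Tnip1, in MRL-IRAK4-KD over MRL, in IRAK4-KD over C57BL6/J and averaged over both backgrounds. At an unadjusted p below 0.05 stood 13 of the 79 in MRL-IRAK4-KD over MRL (16.5%, against 11.4% of all genes), 2 in IRAK4-KD over C57BL6/J (2.53% against 3.80%) and 10 in MRL over C57BL6/J (12.7% against 5.55%). Of the 21 receptors, 2 had a positive log2 fold change in MRL-IRAK4-KD over MRL (median -0.45) and 20 in MRL over C57BL6/J (median 0.50), with 0 called in either and 4 and 5 at an unadjusted p below 0.05. Both comparisons share the MRL libraries. Between the groups without them, 12 of the 21 were positive in IRAK4-KD over C57BL6/J (median 0.03, and 11 with a median of 0.09 without the library labelled IRAK4-KD replicate 3). In MRL-IRAK4-KD over IRAK4-KD 9 were positive (median -0.05). Without MRL-IRAK4-KD replicate 4 the receptors had medians of -0.33 in MRL-IRAK4-KD over MRL (1 positive) and -0.0033 in MRL-IRAK4-KD over IRAK4-KD (10 positive). In the kinase and ubiquitin relay 5 and 11 of 19 genes were positive, with medians of -0.10 and 0.03 and 0 at an unadjusted p below 0.05. Without MRL-IRAK4-KD replicate 4 the first of these was -0.01 (8 positive). The 11 other adaptors and inhibitors had medians of -0.07 and 0.20, the 5 ligands -0.14 and 0.05 and the 23 transcription factors and targets -0.16 and 0.22. Beside these receptor values, the summed level of 10 microglial markers was 404 to 516 CPM in MRL mice, 382 to 438 CPM in MRL-IRAK4-KD mice, 346 to 367 CPM in C57BL6/J mice and 329 to 367 CPM in IRAK4-KD mice. The summed level of 7 red cell and neutrophil markers was 85.0 to 373 CPM in MRL mice, 53.4 to 195 CPM in MRL-IRAK4-KD mice, 44.3 to 94.4 CPM in C57BL6/J mice and 20.96 to 58.5 CPM in IRAK4-KD mice, the 195 CPM being replicate 4. Their median log2 fold changes were 1.79 in MRL over C57BL6/J (7 of 7 positive, all 7 at an unadjusted p below 0.05, 0 called) and -1.73 in MRL-IRAK4-KD over MRL (0 of 7 positive, 5 at an unadjusted p below 0.05, 0 called). For the microglial markers they were 0.33 (10 of 10 positive) and -0.13 (3 of 10), and without MRL-IRAK4-KD replicate 4 the latter was -0.24 (0 of 10). None of these markers was at 0 in any group, and the part of cell makeup in the receptor values was not tested.

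Tnip1 (ENSMUSG00000020400.17, chromosome 11, minus strand, 54910785 to 54962917) encodes ABIN-1, a ubiquitin-binding inhibitor of NF-κB downstream of the Myddosome. It was read at 17.9, 18.5, 17.6 and 18.6 CPM in MRL mice and at 24.7, 31.2, 30.9 and 27.4 CPM in MRL-IRAK4-KD mice. C57BL6/J mice had 17.2, 20.1 and 19.6 CPM and IRAK4-KD mice 30.8, 30.4 and 29.4 CPM. Every kinase-dead library lay above every intact library of both backgrounds, and the share of all genes separated in this way was not computed. Tnip1 rose by 0.65 on the log2 scale in MRL-IRAK4-KD over MRL (SE 0.09, edgeR adjusted p = 0.00934) and by 0.67 in IRAK4-KD over C57BL6/J (SE 0.11, edgeR adjusted p = 0.0184), and by 0.66 on average over both backgrounds (SE 0.07, edgeR adjusted p = 0.000337). Leaving out any 1 of the 14 libraries kept the averaged call, but single comparisons lost theirs. IRAK4-KD over C57BL6/J lost it without any 1 of its 6 libraries, with log2 fold changes of 0.61 to 0.73 and adjusted p up to 0.160 (0.0800 without the library labelled IRAK4-KD replicate 3). MRL-IRAK4-KD over MRL lost it without MRL replicate 2, 3 or 4 or MRL-IRAK4-KD replicate 2 or 3, with an adjusted p of at most 0.0957, and kept it without MRL-IRAK4-KD replicate 4 (log2 fold change 0.66, edgeR adjusted p = 0.00166). Within 1 Mb of Tnip1, 1 of the 43 other genes tested was called in these comparisons, Lyrm7, which was named after its values were seen and rose by 1.04 and 1.11 (edgeR adjusted p = 0.000144 and 0.000289). Of the genes called, 4 of 37 in the first comparison and 14 of 56 in the second lay on chromosome 11, which holds 2432 of the 38070 genes tested, while chromosome 15, which holds Irak4, had 0 in both and 2 of the 81 called for the mutation averaged over both backgrounds. The 4 genes of the first comparison had start positions from 51898966 to 54910785, the latter being that of Tnip1. The 14 of the second comparison had start positions from 3330401 to 83817682. The genotype of chromosome 11 was not tested.

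Of the pathway genes that did not pass the test, Irf7, an interferon regulatory factor activated through MyD88, was read at 2.73, 3.23, 2.99 and 6.02 CPM in MRL mice and at 1.64, 1.99, 1.41 and 2.11 CPM in MRL-IRAK4-KD mice. C57BL6/J mice had 1.40, 1.13 and 1.18 CPM and IRAK4-KD mice 0.865, 0.963 and 0.775 CPM. The 4 groups did not overlap, although the highest C57BL6/J library at 1.40 CPM lay next to the lowest MRL-IRAK4-KD library at 1.41 CPM. Between single pairs of groups 5.26 to 11.2% of all genes did not overlap. The share for 4 groups at once was not computed, and Irf7 was named for its unadjusted p, so this is a description. The log2 fold change was -1.07 in MRL-IRAK4-KD over MRL (edgeR adjusted p = 0.246, and -1.16 with 0.131 without MRL-IRAK4-KD replicate 4) and 1.59 in MRL over C57BL6/J (edgeR adjusted p = 0.221), where it passed the threshold without MRL-IRAK4-KD replicate 4 (edgeR adjusted p = 0.0399). Unc93b1, a chaperone of endosomal Toll-like receptors, had 12.4 to 13.9 CPM in MRL, 10.9 to 11.8 CPM in MRL-IRAK4-KD, 10.1 to 10.6 CPM in C57BL6/J and 7.42 to 9.42 CPM in IRAK4-KD mice. Its log2 fold changes were -0.27 in IRAK4-KD over C57BL6/J (unadjusted p = 0.0296, edgeR adjusted p = 1) and 0.32 in MRL over C57BL6/J (edgeR adjusted p = 0.746). The first rested in part on the library labelled IRAK4-KD replicate 3, without which it was -0.17 (unadjusted p = 0.146). In MRL-IRAK4-KD over IRAK4-KD the log2 fold change of Unc93b1 was 0.37 (unadjusted p = 0.00397, edgeR adjusted p = 0.468). Averaged over both backgrounds, that of the mutation was -0.25 (unadjusted p = 0.00480, edgeR adjusted p = 0.343). Without the same library these were 0.27 and -0.20 (edgeR adjusted p = 0.891 and 0.618). Cd14, a co-receptor of Tlr4, had a log2 fold change of -0.71 in MRL-IRAK4-KD over MRL (edgeR adjusted p = 0.415), and of -0.92 (edgeR adjusted p = 0.205) without replicate 4 of the former. Fos, an AP-1 subunit, had one of -2.63 (edgeR adjusted p = 0.247, and -2.42 with 0.425 without that library), with MRL values from 10.4 to 86.2 CPM.

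**Figure D5:**
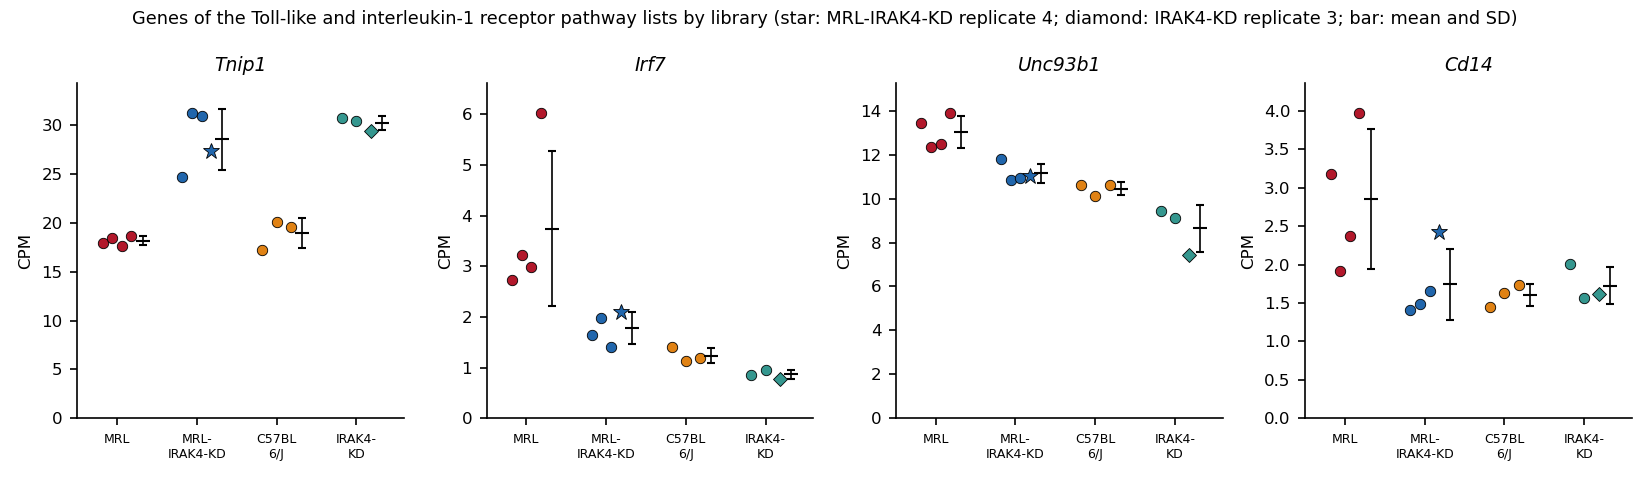
CPM of 4 genes of the pathway lists in each of 14 libraries, with the mean and SD of each group. Tnip1 lies at 24.7 to 31.2 CPM in the 7 kinase-dead libraries and at 17.2 to 20.1 CPM in the 7 others. Irf7, Unc93b1 and Cd14 are shown with values that did not pass the test over 14 libraries.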

How the data were processed

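Poly(A) RNA of 14 hippocampi was sequenced; the methods and the labels of the series name different library kits. Per the submitters' processing notes, reads were aligned to mm10 with HISAT2 2.1.0 and assembled with StringTie 2.1.0. The authors deposited estimated counts per gene and per transcript, which are whole numbers and not normalized, and a sheet of the sequencing core with read counts per library and an input RNA value by Qubit whose unit is not given. Estimated counts of the transcripts of a gene sum exactly to its deposited count in all 55536 Ensembl genes. The other 26345 features (at most 0.188% of counts) were left out. Samples were grouped by their titles.

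Counts were tested with edgeR 4.0.16 (quasi-likelihood, TMM scaling, a total of at least 10 counts, 1 fit of 4 groups, Benjamini-Hochberg threshold 0.05) in R 4.3.3 over 38070 genes and 105421 transcripts, and with edgeR's exon-use test over 83733 transcripts. DESeq2 1.42.0, limma-voom (limma 3.58.1), other scalings and filters, the replicate number as a block and leaving out each library were alternatives. limma on log2 ratios of use (pseudocount 0.5) and leaving out both doubted libraries were added after seeing the data. The p-values of edgeR set a difference between groups against the spread between mice, estimated in 1 fit of 4 groups. The exact p-values come from regrouping libraries within a background. CPM are scaled by TMM, log2 CPM have a pseudocount of 0.1, and TPM were computed from the transcript counts per kb. Correlations are Pearson's, of log2 CPM. The series' methods and the deposited totals leave strand unstated, so reads in shared exon bases cannot be told apart. With genes on the opposite strand, Irak4 shares 395 of its 5021 exonic bases (Twf1), Myd88 290 of 2576 (Acaa1a) and Tirap 446 of 4929 (Gm39318). Irak2 shares 196 of 4412 (Gm43963) and Irak3 192 of 3676 (Tmbim4). Smaller overlaps were 39 bases in Tirap (Srpr), 28 in Irak3 (Gm47009) and, on the same strand, 71 and 70 in Irak1 (Mir5132, Mir718). Members and lists were chosen with earlier results of these data known. The text names every member, the most similar genes by correlation, and pathway genes that were called or led by unadjusted p; Lyrm7 and the transcript pairs were chosen after their values were seen. The scripts were tested on simulated counts. Sequences are from GENCODE M21. Replicate numbers did not pair the samples: 19 pairs with the same number had correlations of deviations from -0.25 to 0.37.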

Additional observations from a re-analysis of the deposited data

Results flagged for a closer look

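In groups of 4 mice, 15 quantities were searched for a library far from the other 3. In a single group of a quantity chosen beforehand, chance gives one about 1 time in 20. Of 30 groups searched, 6 held one. The transcript pairs among the quantities were chosen after their values were seen. The groups also share libraries and are not independent, so the 6 are a description and are not set against chance. In MRL-IRAK4-KD replicate 4, Irak1 stood at 82.2 CPM, Traf6 at 13.04 CPM, Map3k7 at 26.8 CPM and the share of Peli1-201 at 0%. The gap to the nearest library was 0.928, 0.923, 0.866 and 0.997 of the range of the group, each above Dixon's critical value at the 95% level. Irak1 stood apart in CPM but not in TPM, where this library had 37.6 in a range of 33.7 to 44.3 over all libraries. This is the library with the lowest Qubit value of the input, lower counts of long genes and 7758 CPM of choroid plexus markers. Those markers had 65.1 to 1641 CPM in MRL mice and at most 432 CPM in C57BL6/J and 1432 CPM in IRAK4-KD mice. Its own group had a lowest value of 151 CPM and a median of 1184 CPM. The part of any of these in the 4 values was not tested. In MRL mice, Irak2 stood at 14.6 CPM in replicate 4 (0.867 of the range) and the share of Peli1-201 at 98.9% in replicate 2 (0.995 of the range). The latter group spans less than 1 percentage point, and the transcript took the larger share in all 4 mice.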

How the results depend on the processing

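No alternative brought a call in the level of the 10 genes or the 60 transcripts. Of the recomputed log2 fold changes of the genes, 544 kept their sign and 16 turned when 1 library was left out, and 425 kept it and 15 turned under the other settings. Without both doubted libraries the log2 fold changes were -0.029 for Irak1, 0.028 for Myd88 and 0.012 for Map3k7 in MRL-IRAK4-KD over MRL, -0.015 for Map3k7 in IRAK4-KD over C57BL6/J, and 0.11 for Irak2, -0.018 for Myd88, 0.012 for Traf6, 0.052 for Map3k7 and 0.034 for Peli1 in MRL-IRAK4-KD over IRAK4-KD. With the replicate block they were -0.00096 for Irak1 in MRL over C57BL6/J and 0.00196 for Irak2 in MRL-IRAK4-KD over IRAK4-KD. Scaled by library size only, Map3k7 (-0.036) and Tab2 (-0.017) turned in MRL over C57BL6/J and Myd88 (-0.036) in MRL-IRAK4-KD over IRAK4-KD, as did Myd88 (-0.020) over all features.

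Leaving out 1 library at a time gave, in MRL-IRAK4-KD over MRL, -0.038 to 0.20 for Irak1, -0.32 to 0.0022 for Map3k7, -0.083 to 0.018 for Myd88 and -0.14 to 0.0071 for Tirap. In IRAK4-KD over C57BL6/J it gave -0.032 to 0.14 for Irak4, -0.021 to 0.10 for Map3k7 and -0.15 to 0.064 for Tirap. In MRL-IRAK4-KD over IRAK4-KD it gave -0.23 to 0.12 for Irak2, -0.080 to 0.45 for Irak3, -0.072 to 0.079 for Myd88 and -0.11 to 0.069 for Peli1.

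edgeR's test of use called 2 transcripts in MRL-IRAK4-KD over MRL but 0 with the replicate block, 1 with at least 100 counts, 0 by limma, 0 by limma without both doubted libraries and 0 to 2 leaving out 1 library. In IRAK4-KD over C57BL6/J it called 1, but 0 with the block, 0 by limma, 0 by limma without both and 0 to 1 leaving out 1 library. The Irak4-201 share in IRAK4-KD minus C57BL6/J mice was 1.67 points and that of Irak4-202 -3.18 points without both doubted libraries, and leaving out 1 library gave -6.53 to 1.67, -3.18 to 5.31 and, for Irak4-203, -0.275 to 1.51 points. The block changed no other call, and the cause of these changes was not tested. Group sizes of 3 and 4 and the low counts of Irak3, Irak4-203 and minor transcripts limit what could be detected.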
